A study of Mus musculus with 16 samples.

Results

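The genes described here encode the mTOR kinase complexes, the amino acid sensing machinery that recruits mTOR to the lysosome, and the main effectors through which mTORC1 controls translation. The rule took every row of the deposited count table whose gene name is one of 40 listed members, and all 40 were found, each once, among 47069 genes. Their messenger RNA was counted in the hypothalamus of mice of the inbred strain C57BL/6N on 8 diets. The diets supplied 60% or 20% of energy as fat, and at each fat level 1%, 2.5%, 5% or 20% of energy as protein. Each diet had 2 libraries, which gives 4 libraries per protein level and 8 per fat level. The labels name no other treatment or genotype, and the age of the mice and the time on diet are not given in the sources used here. Whether both libraries of a diet came from different animals is also not stated, so the p-values reflect only how far these libraries differ, a spread that may be technical. The study asked how dietary protein acts on hypothalamic gene expression at each fat level, with mTOR signalling as its stated theme.

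mTOR is a protein kinase that works in a pair of complexes. In mTORC1 it is joined by Raptor (Rptor), mLST8 (Mlst8) and the inhibitor PRAS40 (Akt1s1), and in mTORC2 by Rictor, mSIN1 (Mapkap1), mLST8 and the Protor proteins (Prr5 and Prr5l). When amino acids are plentiful, Rag GTPases held on the lysosome by the Ragulator complex bring mTORC1 to the GTPase Rheb, which activates it. GATOR1 switches the Rags off, GATOR2 holds GATOR1 in check, KICSTOR tethers GATOR1 to the lysosome, and folliculin (Flcn) with its partners Fnip1 and Fnip2 acts on RagC and RagD. Active mTORC1 phosphorylates the S6 kinases and the 4E-BP proteins and so promotes translation. This pathway is regulated chiefly by phosphorylation and protein localisation, neither of which is read by messenger RNA counts. In the hypothalamus mTORC1 is known as a nutrient sensor in neurons that govern feeding.

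Of the 40 members, 39 passed the filter on low counts and 1, Wdr24, did not. Wdr24, a GATOR2 subunit, had 0 counts in all 16 libraries, each of 17731242 to 18511818 counts in total, and 3 counts per library is the limit that a count of 0 allows, for counting error only. Its whole span on chromosome 17 (25823627 to 25828730, GRCm38) lies inside the noncoding gene Gm26694, which had 156 to 182 counts per library. Rps6kb2, the second S6 kinase gene, on chromosome 19 (4153991 to 4163354), had 0 counts in 9 libraries and at most 18 in any, and 53.4% of its annotated exon bases lie inside Coro1b or Ptprcap. Rps6kb2 passed the filter only through its few libraries with counts. Its own values are not interpreted further, but it stays in the counts, medians and correlations over the 39 members. Ptprcap was itself at 0 in all 16 libraries. Seh1l, a GATOR2 and nuclear pore subunit whose span also lies wholly inside another annotated gene, had 684 to 826 counts. For 31 of the 40 members the deposited length equals the gene's whole genomic span, introns included, and 10 overlap an annotated coding gene, so reads can be gained from introns or lost to a neighbour. The sources used here do not say whether counting used strand.

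The libraries did not have a uniform RNA makeup, which bears on the members below. Mitochondrially encoded genes took 1.54% to 1.78% of counts in 3 libraries, all fed 1% protein (the pair at 60% fat, and replicate 1 at 20% fat), and 2.19% to 3.20% in the other 13, with the 3.20% in replicate 2 of 20% fat with 1% protein. The list of cortex and hippocampus markers had a mean deviation of log2 1.11 in that library and of 1.76 in replicate 2 of 20% fat with 2.5% protein, against at most 0.0335 elsewhere. All 10 hypothalamus markers were counted in every library, from at least 57 for Sim1, 72 for Agrp and 204 for Pomc to at least 2912 for Oxt. At 1% against 20% protein 1 of them rose and 3 fell, with a summed level of 571.5 to 923.7 CPM at 1% and 795.5 to 926.1 at 20%, and the list's mean deviation was lowest in replicate 2 of 60% fat (-0.319) and of 20% fat (-0.347) with 1% protein.

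Promoter sequence is shown for members in which the E-box core CACGTG was found in the 250 bases before the RefSeq start (GRCm38.p6). These letters are bound by TFEB, which controls lysosomal genes, and by other basic helix-loop-helix factors with other targets. The core reads the same on both strands. Of 34 members with a promoter entry that was searched, 8 (23.5%) held it, against 9.28% of 11779 tested genes with an entry. Those were Eef2k, Eif4e, Fnip1, Lamtor1, Lamtor4, Rheb, Rragb and Rragc. The longer palindrome TCACGTGA was in none of the 34 and in 0.907% of all genes with an entry, and the element TGATGNAA, searched on both strands, was in Eef2k and Lamtor4 (5.88%) against 3.91% of all genes. A match is a description of letters and not a binding site. Windows of 40 bases around the core nearest the start follow for the 6 members whose window lies before every GENCODE M21 transcript of the gene. They run 5′ to 3′ on the gene's strand, which is the plus strand for all 6, with the core in capitals.
Lamtor1 (chr7:101905752-101905791): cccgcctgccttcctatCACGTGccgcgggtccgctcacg
Lamtor4 (chr5:138255361-138255400): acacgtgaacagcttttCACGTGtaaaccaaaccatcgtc
Rragb (chrX:153139905-153139944): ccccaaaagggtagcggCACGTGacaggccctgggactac
Rragc (chr4:123917304-123917343): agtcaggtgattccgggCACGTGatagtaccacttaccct
Fnip1 (chr11:54438087-54438126): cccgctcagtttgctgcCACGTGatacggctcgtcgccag
Eef2k (chr7:120842783-120842822): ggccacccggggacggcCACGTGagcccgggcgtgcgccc
In these windows Lamtor4 holds a second core, 16 bases upstream of the capitals, printed in lower case. Of the 8 members with the core, Lamtor1 alone passed the test of 1% against 20% protein given below.

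Levels can be compared between genes only per length, and here CPM, read counts scaled to a common library size, were divided by the kilobases of annotated exon. Reads from introns enter the counts, so these values are a rough guide. On that scale the 39 members ran from Rraga (94.9 ± 4.56, SD, n = 16 libraries) to Itfg2, a KICSTOR subunit (0.674 ± 0.0807), leaving out Rps6kb2. Of the exon bases of Itfg2 51.6% lie inside Nrip2, so its level may be too low. Below Rraga came Eif4b (62.1 ± 6.16), Akt1 (59.5 ± 4.60) and Rragb (58.5 ± 2.56), which lie within each other's spread. Mtor stood at 16.8 ± 0.722, Rptor at 9.53 ± 0.518 and Rictor at 3.23 ± 0.371, with no overlap among these 3 in any of the 16 libraries.

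Paralogs of the pathway stood far apart on the same per-kilobase scale. Rraga ran from 87.0 to 103.5 per library and Rragb, its close relative, from 52.1 to 62.5. Rragc ran from 23.8 to 31.0 and Rragd from 13.9 to 17.6. Prr5 ran from 15.5 to 21.0 and Prr5l from 4.55 to 7.35. Eif4ebp2, the 4E-BP form best known in brain, ran from 3.61 to 4.62 and Eif4ebp1 from 0.881 to 1.85, and Fnip1 ran from 2.70 to 6.09 against 0.831 to 1.20 for Fnip2. In each of these 5 pairs the ranges over all 16 libraries did not overlap. Of the exon bases of Fnip2 46.4% lie inside Gm17359 or Gm3513, so its level may be too low. Eif4ebp1 was among the least counted members, with 36 to 72 counts per library.

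The first comparison set 1% against 20% protein over both fat levels. At 1% protein the mRNA of Eif4b, a translation initiation factor, was 1.25-fold higher, and Maf1, Lamtor1, Prr5, Sec13 and Akt1 rose by smaller amounts, while Prr5l fell. Mtor, Rptor and Rictor did not pass the test. Of 39 members tested, 6 rose, 1 fell and 32 did not pass (edgeR's quasi-likelihood test at an adjusted p of 0.05 over all genes tested). The 7 that passed are 17.9% of the members, against 14.3% of all 16646 genes tested, and the 6 that rose are 15.4% against 8.26%, while the 1 that fell is 2.56% against 6.01%. The median log2 change of the members was 0.0755 and that of all genes 0.00346, with 28 members above 0 and 11 below. In bulk tissue fewer cells of a type and less RNA per cell cannot be told apart. Marker lists moved with the 1% diets as well, beside the hypothalamus list given above. Of 8 thalamus markers 4 rose (summed level 1103 to 1431 CPM at 1% and 889.8 to 1028 at 20% protein), and of 5 endothelial markers 4 fell (136.1 to 148.9 and 166.5 to 195 CPM). Of 4 astrocyte markers 2 rose and 1 fell (916.1 to 984.8 and 906.8 to 969.5 CPM), of 5 choroid plexus markers 1 rose (45.4 to 250.6 and 42.4 to 53.1 CPM), and of 5 oligodendrocyte markers 1 fell. No marker of cortex and hippocampus, microglia or neurons in general passed. The neuron list still summed to 3914 to 4151 CPM at 1% and 3797 to 3912 at 20% protein, which did not overlap. The cortex and hippocampus list ran from 1035 to 1677 and 880.8 to 1038 CPM, the microglia list from 175.8 to 249.2 and 210.2 to 242.7. The part of all these lists in the members' changes was not tested. The changes were small. The call of Eif4b held on leaving out any 1 library, and the other 6 calls did not, as described below.

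**Figure D1:**
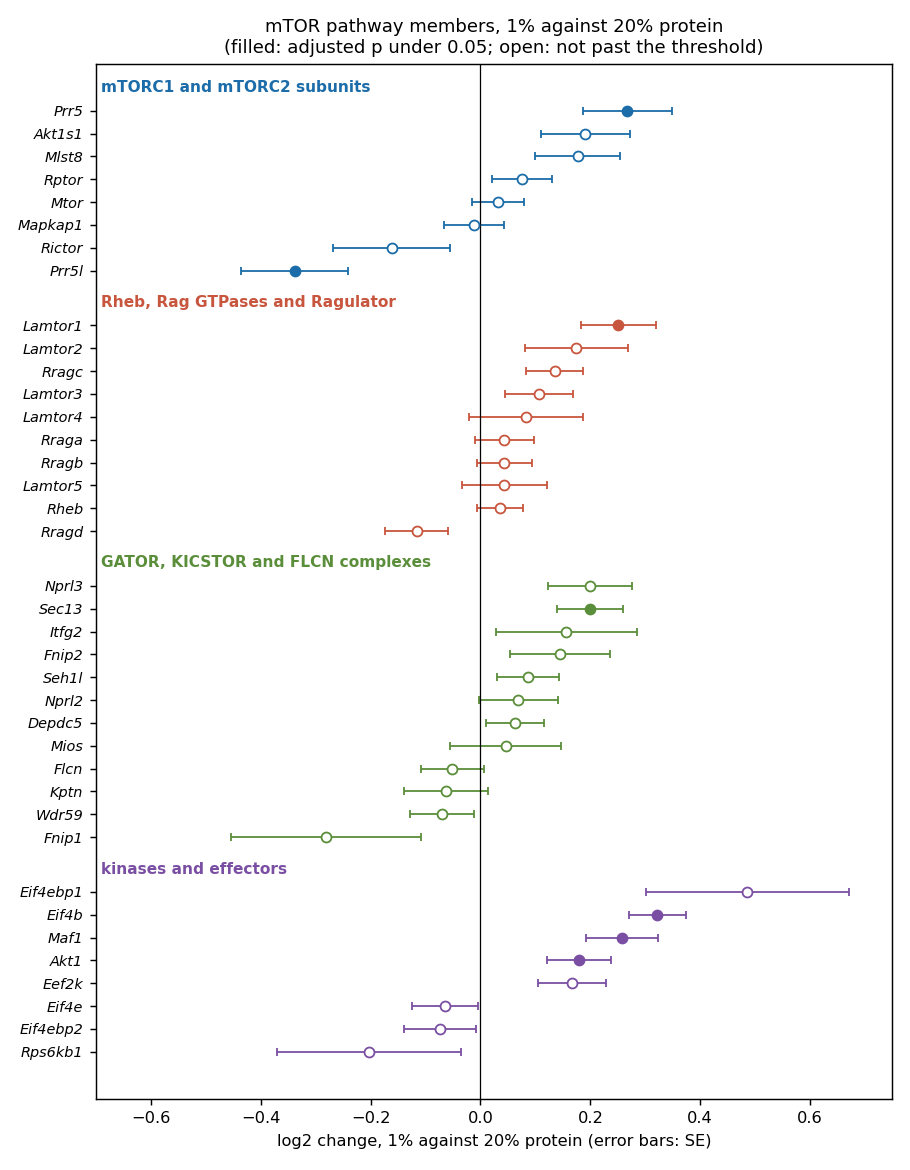
Each point is the log2 change of a member from 20% to 1% protein over both fat levels (x axis, error bars are the SE from edgeR), grouped by role on the y axis; filled points passed the adjusted p of 0.05 and open points did not. Most points lie between -0.2 and 0.3, and Eif4b, Maf1, Akt1, Sec13, Lamtor1, Prr5 and Prr5l are filled; Rps6kb2 is left out for its few counts.

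Among the 8 subunits of the mTOR complexes, Prr5 rose, Prr5l fell and 6 did not pass. Mtor, the kinase itself, on chromosome 4 (148448611 to 148557683), had 181.3 and 181.8 CPM in the libraries of 60% fat with 1% protein and 170.8 and 162.5 at 20% fat with 1% protein. At 20% protein it had 175.9 and 171.8 CPM at 60% fat and 163.4 and 170.1 at 20% fat. The groups overlapped, and the change was log2 0.03 ± 0.05 (SE, adjusted p = 0.676 by edgeR's quasi-likelihood F test). Rptor, the substrate-binding scaffold of mTORC1, averaged 133 ± 8.53 CPM at 1% and 126 ± 2.55 at 20% protein (SD, n = 4 each), and Rictor, the scaffold of mTORC2, 51.0 ± 11.5 and 56.8 ± 3.03. The spread of Rictor at 1% came from 3 libraries at 43.0, 45.3 and 47.6 CPM and the replicate 2 of 20% fat at 68.0. Akt1s1 (log2 0.19, adjusted p = 0.117), Mlst8 (0.18, 0.128) and Mapkap1 (-0.01, 0.9) did not pass in the same test.

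Prr5 and Prr5l encode alternative mTORC2 subunits, Protor-1 and Protor-2, and went in opposite directions. Prr5, on chromosome 15 (84669620 to 84703673), had 39.96 and 40.3 CPM at 60% fat with 1% protein and 38.6 and 29.7 at 20% fat with 1% protein. At 20% protein it had 32.0 and 31.6 CPM at 60% fat and 29.6 and 30.0 at 20% fat. Thus 3 of 4 libraries at 1% protein lay above all 4 at 20%, and the fourth lay among them. Prr5l, on chromosome 2 (101714285 to 101883027), had 31.9 and 28.8 CPM at 60% fat with 1% protein and 24.4 and 22.6 at 20% fat with 1% protein. At 20% protein Prr5l had 35.4 and 29.6 CPM at 60% fat and 34.0 and 36.3 at 20% fat. For Prr5l 3 of 4 libraries at 1% protein lay below all 4 at 20%, and the groups overlapped through the libraries at 60% fat. The log2 changes were 0.27 ± 0.08 (SE, adjusted p = 0.0389) for Prr5 and -0.34 ± 0.10 (0.0314) for Prr5l by edgeR's quasi-likelihood F test.

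The ratio of Prr5 to Prr5l, taken within each library and so free of library scaling, set the 1% diets apart from all others. It was 1.255 and 1.40 at 60% fat with 1% protein and 1.58 and 1.32 at 20% fat with 1% protein. In the 12 libraries at 2.5%, 5% and 20% protein it ran from 0.812 to 1.10, with means of 0.969 ± 0.117, 1.02 ± 0.0961 and 0.918 ± 0.106 (SD, n = 4 each). All 4 libraries at 1% protein thus stood above the other 12, the one with cortex markers included. The ratio was looked at after the values of both genes were seen and carries no test. Oligodendrocyte markers, of a cell type that is abundant in this tissue, had summed levels of 5703 to 7817 CPM at 1% and 6885 to 8364 at 20% protein, with 1 of 5 lower past the threshold and a median log2 change of -0.145. Their part in the fall of Prr5l was not tested.

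**Figure D2:**
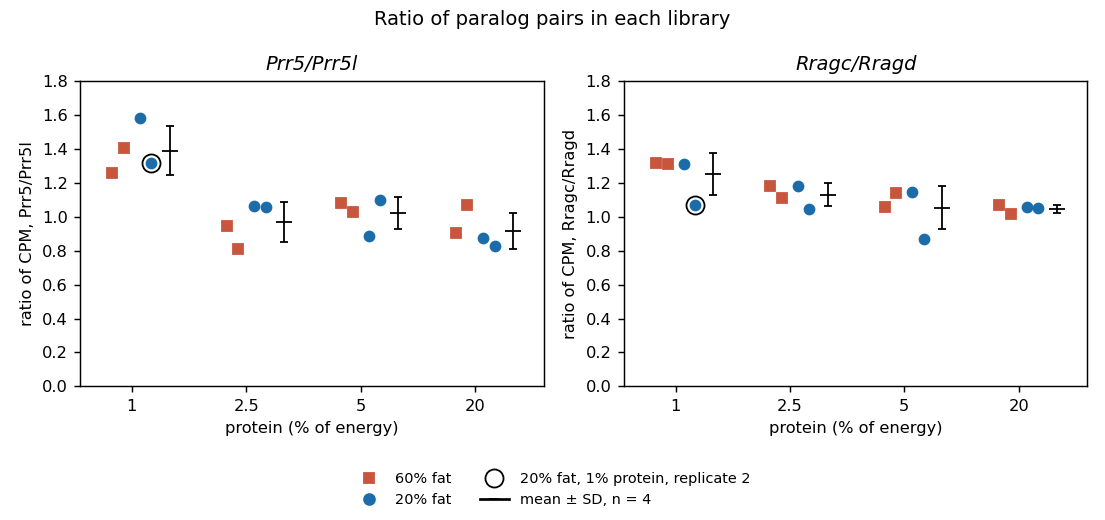
Ratio of CPM within each library (y axis) for Prr5 to Prr5l (left) and Rragc to Rragd (right) at each protein level (x axis, % of energy), with 60% fat as squares, 20% fat as circles and mean ± SD (n = 4) in black. For Prr5 to Prr5l all 4 libraries at 1% protein, from 1.255 to 1.58, lie above the other 12; for Rragc to Rragd 3 of 4 do and the ringed replicate 2 of 20% fat, at 1.07, does not.

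Of 10 genes of Rheb, the Rag GTPases and Ragulator, Lamtor1 rose and 9 did not pass. Their log2 changes ran from -0.12 to 0.25, with 9 above 0 and 1 below. Lamtor1 encodes the lipid-anchored protein that holds Ragulator on the lysosome, and lies on chromosome 7 (101905904 to 101926675). It had 68.3 and 68.4 CPM at 60% fat with 1% protein and 72.8 and 55.4 at 20% fat with 1% protein. At 20% protein Lamtor1 had 54.3 and 57.9 CPM at 60% fat and 58.0 and 52.3 at 20% fat. The 3 higher libraries lay above all 4 at 20%, and replicate 2 of 20% fat with 1% protein lay within their range. Its change was log2 0.25 ± 0.07 (SE, adjusted p = 0.0256 by edgeR's quasi-likelihood F test). The Lamtor1 span overlaps Lrrc51 and Tomt over 68.1% of its bases. These genes had at most 26 and 7 counts against 981 to 1317 for Lamtor1. Reads that Lamtor1 may have lost in the overlap were not measured.

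The other Ragulator subunits did not pass, although 3 of 4 libraries at 1% protein lay above all 4 at 20% for Lamtor2 and Lamtor3, as for Lamtor1. Lamtor2, Lamtor3, Lamtor4 and Lamtor5, the small subunits that form the scaffold for the Rags, had log2 changes of 0.17, 0.11, 0.08 and 0.04, with adjusted p of 0.211, 0.251, 0.608 and 0.734 in edgeR's test. Rheb, the direct activator of mTORC1, was at 0.04 (0.589) and held between 121 and 133 CPM in all 16 libraries. Rraga and Rragb, the GTPases whose loading with GTP signals amino acid sufficiency, were at 0.04 each (0.606 and 0.576), and Rragc and Rragd, their partners, at 0.14 (0.0863) and -0.12 (0.172). Rragc had 98.9 and 103.7 CPM at 60% fat with 1% protein, 94.4 and 88.1 at 20% fat with 1% protein, and 84.8 to 89.3 in the 4 libraries at 20% protein. The ratio of Rragc to Rragd was 1.25 ± 0.122 at 1% and 1.05 ± 0.0237 at 20% protein (SD, n = 4 each), overlapping through replicate 2 of 20% fat with 1% protein. Rraga to Rragb, by contrast, averaged 1.152 at 1% and 1.151 at 20% protein.

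Of 12 genes tested of the GATOR, KICSTOR and FLCN complexes, Sec13 rose and 11 did not pass. Sec13 encodes a GATOR2 subunit that is also part of the COPII coat and of the nuclear pore, and lies on chromosome 6 (113728062 to 113740743). It had 63.8 and 61.7 CPM at 60% fat with 1% protein and 66.3 and 55.2 at 20% fat with 1% protein. At 20% protein Sec13 had 53.3 and 54.0 CPM at 60% fat and 58.0 and 49.7 at 20% fat, so that the groups overlapped through replicate 2 of 20% fat with 1% protein. The change was log2 0.20 ± 0.06 (SE, adjusted p = 0.0358 by edgeR's quasi-likelihood F test). The remaining GATOR2 genes Mios, Wdr59 and Seh1l were at 0.05 (0.788), -0.07 (0.43) and 0.09 (0.309). The GATOR1 genes Depdc5, Nprl2 and Nprl3 were at 0.06 (0.425), 0.07 (0.53) and 0.20 (0.0881), where GATOR1 is the complex that inactivates RagA and RagB. Kptn and Itfg2 of KICSTOR were at -0.06 (0.597) and 0.16 (0.421), and Itfg2 rested on 74 to 110 counts per library. Flcn was at -0.05 (0.569), Fnip1 at -0.28 (0.274) and Fnip2 at 0.15 (0.285), each in the same test.

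Of 9 kinases and effectors, Eif4b, Maf1 and Akt1 rose and 6 did not pass. Eif4b, whose protein stimulates the RNA helicase of translation initiation and is a target of S6 kinase, lies on chromosome 15 (102073773 to 102097173). It had 333 and 313 CPM at 60% fat with 1% protein and 336 and 289 at 20% fat with 1% protein. At 20% protein Eif4b had 251.5 and 265.4 CPM at 60% fat and 250.5 and 249.8 at 20% fat. All 4 libraries at 1% protein lay above all 4 at 20%, and also above the 8 at 2.5% and 5%, of which the highest had 282 CPM. Its change was log2 0.32 ± 0.05 (SE, adjusted p = 0.00112 by edgeR's quasi-likelihood F test), the smallest adjusted p of any member. Only 2 members, Eif4b and Eef2k, had all libraries at 1% protein above all at 20%, and none had all below, against 7.40% and 6.35% of all genes tested, or 13.8% in either direction.

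Maf1, a repressor of RNA polymerase III that mTORC1 holds inactive, lies on chromosome 15 (76351294 to 76354380). It had 101.9 CPM in each library of 60% fat with 1% protein and 100.8 and 79.7 at 20% fat with 1% protein. At 20% protein Maf1 had 80.9 and 84.8 CPM at 60% fat and 79.8 and 75.7 at 20% fat, so that 3 of 4 libraries at 1% stood above and the fourth within. The change was log2 0.26 ± 0.07 (SE, adjusted p = 0.0181 by edgeR's quasi-likelihood F test). Akt1, the kinase that relays insulin signals to mTORC1 and is itself phosphorylated by mTORC2, lies on chromosome 12 (112653821 to 112674884). It had 286 and 276 CPM at 60% fat with 1% protein and 264 and 227 at 20% fat with 1% protein, against 226 and 246 at 60% fat and 234 and 223 at 20% fat with 20% protein. Akt1 changed by log2 0.18 ± 0.06 (adjusted p = 0.0475), the weakest of the 7 calls.

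The direct translational regulators downstream of mTORC1 did not pass. Eif4ebp1, a repressor of the cap-binding protein eIF4E, had the largest positive change (log2 0.49 ± 0.18, SE, adjusted p = 0.0842 by edgeR's quasi-likelihood F test), at 3.28 ± 0.567 CPM at 1% and 2.34 ± 0.36 at 20% protein (SD, n = 4 each). Eif4ebp2, its more abundant relative here, was at -0.07 (adjusted p = 0.456), Eif4e at -0.07 (0.476) and Eef2k, the kinase that inhibits translation elongation, at 0.17 (0.0814). Eef2k had 52.0 to 54.5 CPM in the 4 libraries at 1% protein and 45.2 to 49.9 at 20%, but 43.6 to 55.9 at 2.5%. Rps6kb1, the main S6 kinase gene, was at -0.20 ± 0.17 (adjusted p = 0.419). Its 1% libraries split, at 24.99, 32.7 and 32.9 CPM in 3 of them and 57.6 in replicate 2 of 20% fat, around 39.8 to 44.5 at 20% protein.

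**Figure D3:**
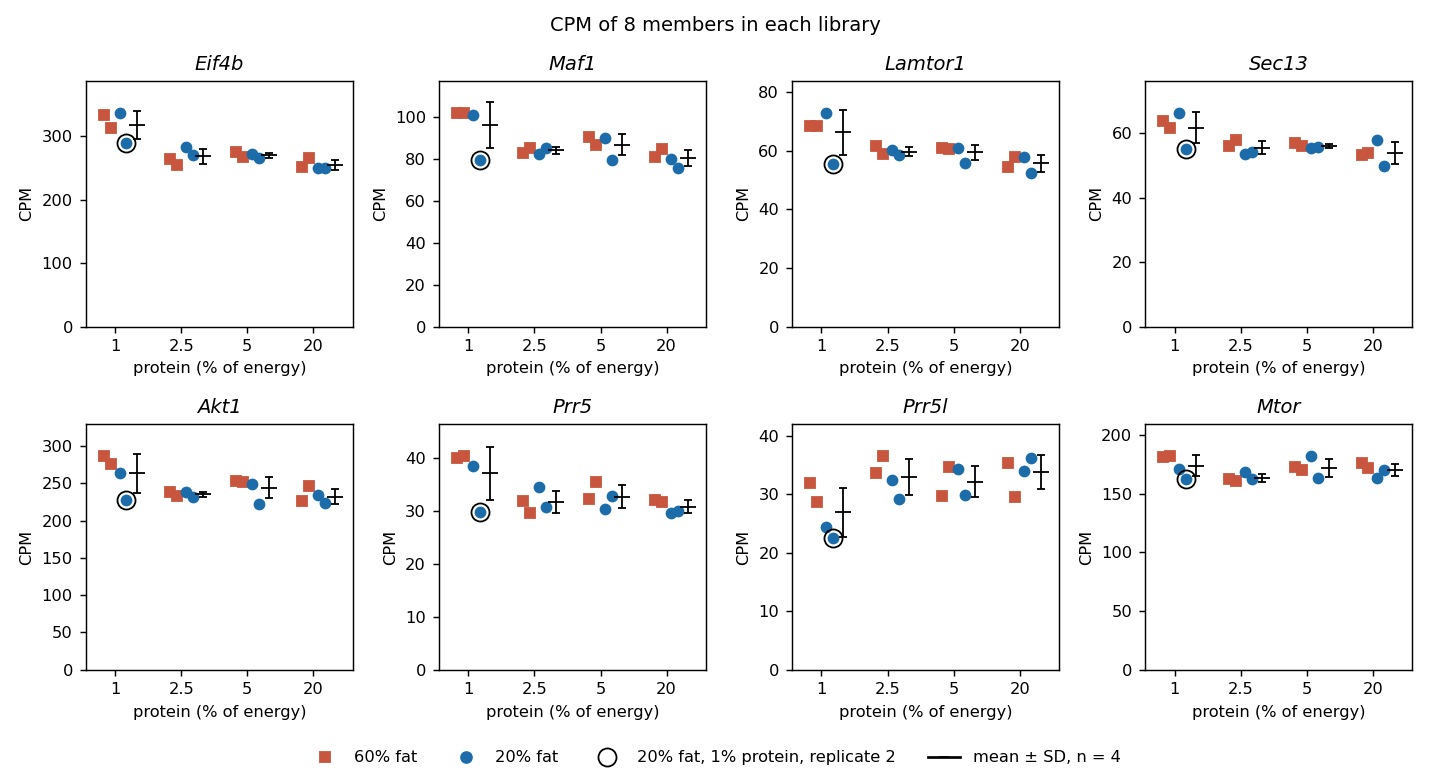
CPM (y axis, from 0) of the 7 members past the threshold and of Mtor in each library by protein level (x axis, % of energy), with 60% fat as squares, 20% fat as circles and mean ± SD (n = 4) in black. In Maf1, Lamtor1, Sec13, Akt1 and Prr5 the ringed replicate 2 of 20% fat with 1% protein lies among the 20% protein libraries, while all 4 libraries of Eif4b at 1% lie above the rest.

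Replicate 2 of 20% fat with 1% protein therefore stood with the 20% protein libraries for 5 of the 6 genes that rose. Without it 16 of the 39 members passed (41.0%), 10 higher and 6 lower, while 33% of all genes tested passed. The 6 lower were then Prr5l, Rictor, Rragd, Fnip1, Rps6kb1 and Eif4e, and the added higher ones Akt1s1, Lamtor2, Nprl3 and Rragc. Without both libraries that carried cortex markers 17 passed (43.6% against 34.8% of all genes), the same 16 and Eif4ebp1. In the opposite direction, without the 3 libraries of low mitochondrial share only Prr5l passed (2.56% of members against 2.37% of all genes) and the 6 genes that rose did not, with Lamtor1 at log2 0.0004 and Maf1 at 0.01, and with only the cortex-marker library left at 1% protein. Prr5 and Akt1 then changed sign, at -0.043 and -0.018.

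Other single libraries moved the count as well, and the share of all genes past the threshold moved with it. A single member, Eif4b, was left after omitting replicate 2 at 60% fat and 1% protein, replicate 1 at 60% fat and 20% protein, replicate 1 at 20% fat and 1% protein, or replicate 2 at 20% fat and 20% protein (2.56% of members against 5.52% to 6.36% of all genes). Omitting replicate 1 of the 60% fat, 1% protein diet left 2 (5.13% against 6.66%), and omitting replicate 2 of the 60% fat, 20% protein diet left 3 (7.69% against 7.95%). The count was 4 (10.3% against 10.6% to 13% of all genes) after omitting any of these: replicate 1 at 60% fat and 2.5% protein, each library at 60% fat and 5% protein, replicate 2 at 20% fat and 2.5% protein, replicate 2 at 20% fat and 5% protein, and replicate 1 at 20% fat and 20% protein. Eif4b was the member called most steadily: it passed in 26 of 27 alternatives, with log2 changes from 0.17 to 0.36, and failed without the 3 libraries of low mitochondrial share (adjusted p = 0.248 by edgeR's quasi-likelihood F test). Prr5l passed in 20 of 27, Maf1 in 19, Lamtor1 in 18, Prr5 in 12, Sec13 in 8 and Akt1 in 7.

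The change of a member moved with the length of its gene. Across the 39 members the Spearman correlation of deposited length with the log2 change from 20% to 1% protein was -0.398, and across all 16646 genes tested it was -0.227. These are descriptions over genes that share the same libraries, and genes are not independent replicates. The 19 members shorter than the median of 21064 bases had a median change of log2 0.14, with 16 above 0, and the 20 others had 0.04, with 12 above 0. Prr5l, at 168743 bases the longest gene that passed, was the one that fell. With each library's trend on length removed, Eif4b (0.33), Prr5 (0.29), Lamtor1 (0.25), Sec13 (0.17), Akt1 (0.18) and Maf1 (0.17) still passed, Eef2k (0.23, adjusted p = 0.0315 by edgeR's quasi-likelihood F test) was added, and Prr5l (-0.26, 0.0998) did not pass.

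**Figure D4:**
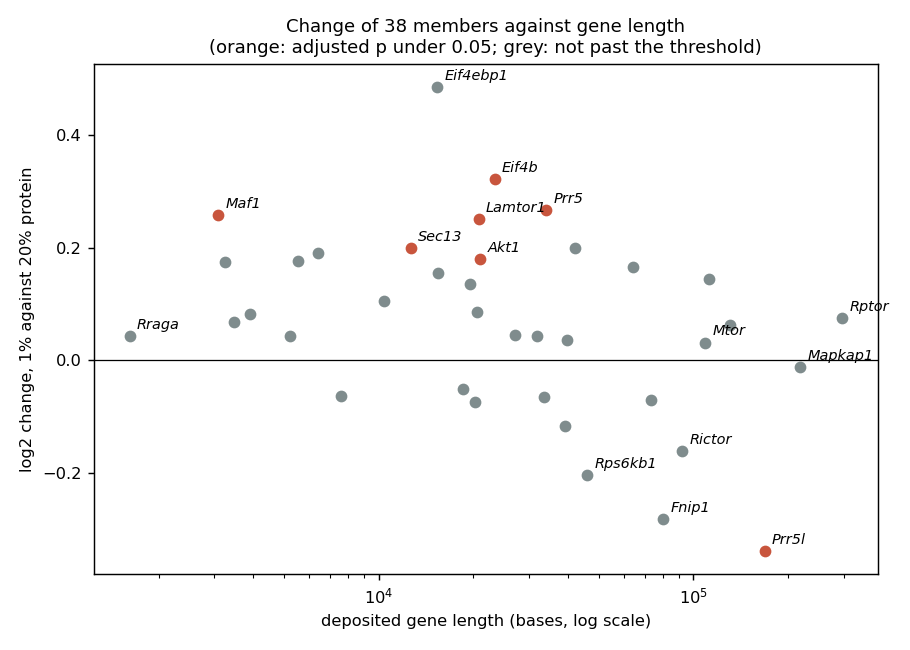
Log2 change from 20% to 1% protein (y axis) against the deposited gene length in bases (x axis, log scale) for 38 members, leaving out Rps6kb2; orange points passed the adjusted p of 0.05. The Spearman correlation over all 39 members is -0.398, with Maf1 (3087 bases) among the short genes that rose and Prr5l (168743 bases) at the lower right.

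Several members moved with the mitochondrial share among the libraries outside the low cluster. Since the 3 libraries under 2% form a separate cluster, the relation was computed over the 13 others for the 39 members, on log2(CPM + 0.1). The p-values were adjusted over these 39 relations. The permutations ignored diet and treated all 13 libraries as independent, though most share a diet with another, so the p-values may be too small. The relation was not computed for the other genes tested, so whether members followed the share more often than genes in general is not known. Of these 13, 1 was from a 1% protein diet, replicate 2 of 20% fat, which had the highest share (3.20%) and also the highest CPM of Rps6kb1 and Rictor. Rps6kb1 rose with the share (Pearson r = 0.9, permutation p = 1e-05, the smallest that 100000 permutations can give, adjusted p = 0.00039; Spearman rho = 0.83, permutation p = 0.00078, adjusted p = 0.0203). Fnip1 did likewise (r = 0.853, permutation p = 0.00018, adjusted p = 0.00351; rho = 0.819, permutation p = 0.00104, adjusted p = 0.0203). Rictor (r = 0.826, adjusted permutation p = 0.00455), Mios (0.815, 0.00595) and Eif4e (0.732, 0.0327) also passed by Pearson and Akt1 passed with the opposite sign (-0.725, 0.0364), but these 4 did not pass by Spearman (rho = 0.703, 0.698, 0.659 and -0.753, adjusted permutation p = 0.0696, 0.0696, 0.0953 and 0.0532). Without the 2 libraries farthest from the median share, r was 0.768 for Rps6kb1, 0.73 for Fnip1, 0.691 for Rictor, 0.644 for Mios, 0.496 for Eif4e and -0.64 for Akt1. With the mitochondrial share as a covariate, Eif4b and Prr5l passed for 1% against 20% protein (5.13% of members against 8.43% of all genes) and the other 5 did not. The part of RNA makeup in the members' changes was not tested beyond these values.

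**Figure D5:**
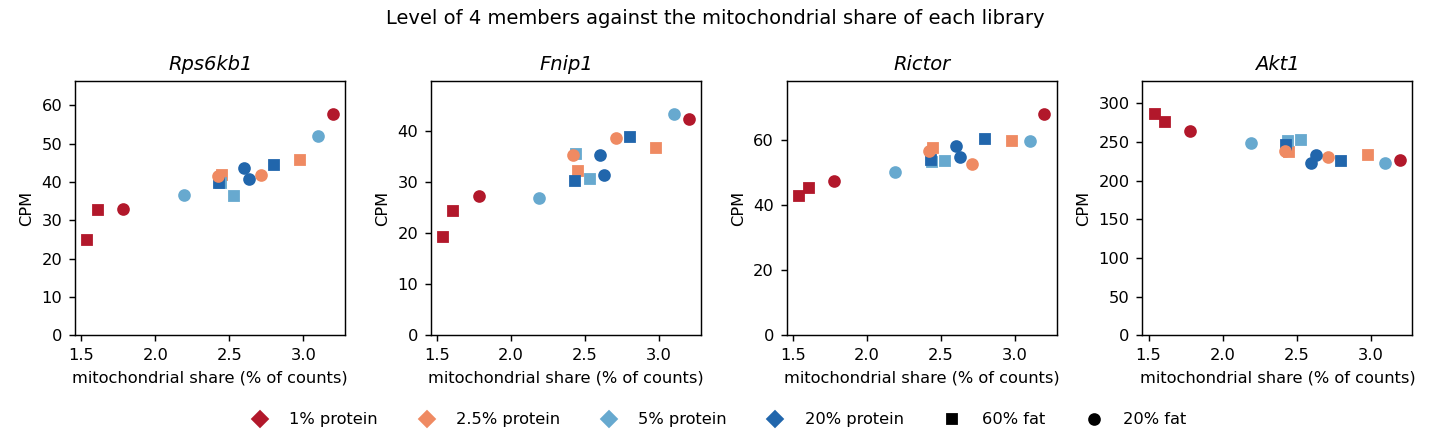
CPM (y axis, from 0) of Rps6kb1, Fnip1, Rictor and Akt1 against the share of counts from the mitochondrial genome (x axis, %) in the 16 libraries, coloured by protein level, with 60% fat as squares and 20% fat as circles. Rps6kb1 and Rictor are lowest and Akt1 is highest in the 3 libraries at 1.54% to 1.78%, while Fnip1 is as low in 1 library at 2.19%.

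The median change of the members against 20% protein was smaller at the intermediate levels. It was log2 0.0079 at 2.5%, 0.023 at 5% and 0.0755 at 1% protein. Some members changed more at 5% than at 1%, such as Eif4ebp2 (-0.16 and -0.07) and Lamtor5 (0.11 and 0.04). Against 20% protein, no member passed at 2.5% or at 5% by edgeR's quasi-likelihood F test, where 0.00601% and 0.0300% of all genes passed (0.0180% higher and 0.0120% lower at 5%). DESeq2 also called none. Without adjustment 0 and 1 of 39 members had p under 0.05, against 801 and 501 of 16646 genes tested. The 1 was Eif4ebp2 at 5% protein (log2 -0.16, adjusted p = 0.9997 in edgeR's test). For 1% against 5% protein Eif4b alone passed (log2 0.24 ± 0.05, SE, adjusted p = 0.0158), 2.56% of members against 4.87% of all genes (2.46% higher and 2.41% lower). Eif4b averaged 318 ± 21.8 CPM at 1%, 268 ± 11.4 at 2.5%, 270 ± 4.48 at 5% and 254 ± 7.45 at 20% protein (SD, n = 4 each). Maf1 averaged 96.1, 84.0, 86.7 and 80.3 CPM at these levels, and Lamtor1 66.2, 59.7, 59.5 and 55.6. The call of Eif4b against 5% protein was lost after omitting replicate 1 at 60% fat and 1% protein, replicate 2 at 60% fat and 5% protein, replicate 1 at 20% fat and 1% protein, or replicate 2 at 20% fat and 5% protein. Without replicate 2 of 20% fat with 1% protein 10 members passed in that comparison (25.6% against 22.3% of all genes).

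Along the protein slope of the model given in the series' design text, no member passed. Eif4b had the smallest adjusted p (log2 0.21 ± 0.07 from 20% to 1% protein, SE, adjusted p = 0.229 by edgeR's quasi-likelihood F test), and 0.0180% of all genes passed (0.0120% higher and 0.00601% lower). Without adjustment 6 of 39 members had p under 0.05, against 2435 of 16646 genes tested, and DESeq2 called none. With protein on a log2 scale 3 members passed, all higher, against 7.88% of all genes.

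The study's question concerned protein at each fat level, so 1% was also set against 20% protein within 60% and within 20% fat, with 2 libraries per diet. At 60% fat Eif4b rose (log2 0.32 ± 0.08, SE, adjusted p = 0.0394 by edgeR's quasi-likelihood F test) and 38 members did not pass, where 4.25% of all genes passed (1.97% higher and 2.28% lower). At 20% fat Eif4b rose by the same amount (0.32 ± 0.08, adjusted p = 0.0482) and Prr5l fell (-0.58 ± 0.12, 0.0232), where 1.78% of all genes passed (0.601% higher and 1.18% lower). Prr5l was at -0.10 ± 0.12 (0.595) at 60% fat, but the difference between fat levels did not pass (0.48 ± 0.16, adjusted p = 0.623). No member passed that test of the difference, DESeq2 called none, and 0% of all genes passed. Without adjustment 5 of 39 members had p under 0.05, against 1305 of 16646 genes tested. Those 5 were Mios, Prr5l, Fnip1, Rps6kb1 and the barely counted Rps6kb2. Mios, Fnip1 and Rps6kb1 were higher in replicate 2 of 20% fat with 1% protein than in any other library at 1%.

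These calls within a fat level were also lost on omitting single libraries, those of diets outside the comparison included. The adjusted p of Eif4b lay close to 0.05 at both fat levels (0.0394 and 0.0482 by edgeR's quasi-likelihood F test). The call of Eif4b at 60% fat was lost, with no member passing (0.0939% to 1.84% of all genes did), without any 1 of the 8 libraries at 60% fat or of the 2 at 20% fat with 20% protein. Without either library of 20% fat with 1% protein 9 members passed at 60% fat (23.1% against 16.1% to 16.2% of all genes), and without either of 20% fat with 5% protein 2 did (5.13% against 8.14% to 8.18%). At 20% fat the 2 calls became 4 without replicate 2 of 1% protein (10.3% against 4.73% of all genes), 0 without either library of 20% protein (0.311% to 0.47%), and 1 without any other single library (2.56% against 1.17% to 1.82%). Without replicate 2 of 1% protein only higher members passed at 20% fat, so the call of Prr5l there was lost. Wherever 1 call was left at 20% fat, it was of a lower member, so the call of Eif4b there was lost. Where a library of a compared diet is left out, the lone sample is assumed to vary like the other groups.

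Dietary fat made no called difference to the members. Over all protein levels, none of 39 passed for 60% against 20% fat by edgeR's quasi-likelihood F test, DESeq2 called none, and 0.00601% of all genes passed. Rragc (log2 0.08 ± 0.04, SE, adjusted p = 0.629) and Fnip2 (-0.14 ± 0.06, 0.629) had an unadjusted p under 0.05. These are 2 of 39 members, against 1297 of 16646 genes tested. Mtor was at most 182 CPM and at least 161 CPM over all diets at either fat level.

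Other genes of the pathway were taken from a list of 52 names of upstream brakes, amino acid sensors, kinases, TFEB family members and effectors, of which 46 are in the file and 44 were tested. At 1% against 20% protein 9 of the 44 rose (20.5%), none fell and 35 did not pass, where 8.26% of all genes tested rose and 6.01% fell. Their median log2 change was 0.041. Ddit4, a stress-induced inhibitor of mTORC1, had 94.3 to 112 CPM in the 4 libraries at 1% and 45.7 to 51.3 at 20% protein, and Sgk1, a kinase activated by mTORC2 and induced by glucocorticoids, 271 to 351 and 84.0 to 180. Their log2 changes were 1.10 ± 0.08 and 1.20 ± 0.22 (SE, adjusted p = 1.38e-06 and 0.00311 by edgeR's quasi-likelihood F test), 3 to 4 times that of Eif4b on the log2 scale. Ddit4 passed in all 27 alternatives and Sgk1 in 26. Sgk1 was at log2 1.02 in the other, without the 3 libraries of low mitochondrial share.

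The rest of those 9 changed on the scale of the members. Gatsl3, listed by RefSeq as a synonym of the arginine sensor gene Castor1, rose from 7.16 ± 0.53 to 9.97 ± 1.55 CPM (SD, n = 4 each; log2 0.48, adjusted p = 0.0179 in edgeR's test). Lars, the leucyl-tRNA synthetase, rose by 0.19 (0.0195), Sesn1, an inhibitor of GATOR2, by 0.23 (0.0274), and Tbc1d7, a subunit of the TSC complex that inactivates Rheb, by 0.26 (0.0384). Atg13, of the autophagy-initiating ULK complex, rose by 0.23 (0.0118), Rps6, the ribosomal protein phosphorylated by S6 kinase, by 0.23 (0.0185), and Rnf167, a lysosome-linked ubiquitin ligase, by 0.20 (0.0399). Of 27 alternatives Atg13 passed in 22, Gatsl3 in 21, Sesn1 in 20, Rps6 in 19, Lars in 17, Tbc1d7 in 12 and Rnf167 in 10. The list was chosen with earlier results of these data known, and Rps6 has near-identical copies elsewhere in the genome, so its count is uncertain.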

How the data were processed

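The authors deposited raw gene counts for 16 hypothalamus libraries, 1 column each, unnormalised, and a gene length in bases. Per the submitters' processing notes, HISAT2 2.1.0, featureCounts, Subread 5.0, SAMtools 1.2, FastQC, edgeR and build GRCm38 were used. Totals were 17731242 to 18511818 per library, and all per-sample columns were mapped. Members and lists were chosen with earlier results of these data known. Here genes were kept with filterByExpr (minimum count 10; 16646 genes), scaled by TMM and tested with edgeR 4.0.16 (R 4.3.3) quasi-likelihood F tests, Benjamini-Hochberg adjusted over all genes tested at 0.05. Models were protein level plus fat, the 8 diets as groups, and the series' slope model, whose interaction was dropped where its p was above 0.05, with fat centred. CPM are TMM-scaled. All members could be named, and other pathway genes only if past the threshold for 1% against 20% protein or for fat. Steps were tested on simulated data. No replicate block entered the models: same-numbered deviations correlated above 0.1 in 7 of 28 pairs of diets (-0.17 to 0.339). Replicates of a diet differed by more than sampling noise (chi-square per degree of freedom 3.02 to 25.3). Annotation is GENCODE M21 and promoters are RefSeq GRCm38.p6. Alternatives, DESeq2 1.42.0 among them, are given in the closing section. Promoters on chromosome 18 were not searched.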

Additional observations from a re-analysis of the deposited data

Results flagged for a closer look

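Within each protein level of 4 libraries, 1 library stood far from the other 3 in 15 of 156 member and level combinations, and chance flags about 1 in 20 such groups. Several fell on the same libraries. Replicate 2 of 20% fat with 1% protein, with a mitochondrial share of 3.20%, was lowest for Prr5 (29.74 CPM, others 38.59 to 40.34) and Maf1 (79.71, others 100.8 to 101.9) and highest for Eif4e (74.12, others 61.5 to 62.81). Replicate 2 of 20% fat with 5% protein, with a share of 3.10%, was lowest for Rragc (79.46 CPM, others 89.4 to 90.2), Lamtor1 (55.65, others 60.42 to 60.98) and Akt1 (222.5, others 249.5 to 252.8) and highest for Eef2k (48.57, others 48.17 to 48.22). At 60% fat with 2.5% protein, replicate 1 was lowest for Mapkap1 (50.99 CPM, others 56.32 to 56.84) and Eif4e (67.88, others 69.15 to 69.3), and replicate 2 highest for Rps6kb1 (45.68, others 41.49 to 41.88) and Eif4ebp2 (24.22, others 22.41 to 22.66). Mtor was highest in replicate 1 of 20% fat with 2.5% protein (168.3 CPM, others 161.3 to 162.4), and Eif4b in replicate 2 of 60% fat with 20% protein (265.4, others 249.8 to 251.5). Rps6kb2, at 0 in the other 3 libraries, had 0.9791 CPM in replicate 2 of 20% fat with 2.5% protein and 0.1094 in replicate 1 of 60% fat with 5% protein. What these libraries have in common beyond the values given was not tested.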

How the results depend on the processing

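For 1% against 20% protein the 7 members past the threshold (17.9%) stayed 7 with median-ratio scaling (14.0% of all genes) and a filter of 1 CPM in 4 libraries (16.3%). The count was also 7 with the replicate block (16.7%), DESeq2 (17.1%) and the gene length trend removed (13.9%, where Eef2k replaced Prr5l). It became 5 (12.8% of members) with no count filter (8.25% of all genes) or with 8 diets as groups (12.7%). The count was 2 with the mitochondrial share as a covariate (8.43% of all genes passed), 17 without the cortex-marker libraries (34.8%), 1 with only the libraries at 1% and 20% protein (4.95%), and 1 without the libraries of low mitochondrial share (2.37%), an alternative chosen after seeing the data. There the log2 change turned to -0.043 for Prr5, -0.018 for Akt1 and -0.024 for Rnf167. Leaving out each library gave 1 to 16. For 1% against 5% protein the single call became 10 without the cortex-marker libraries (23.8% of all genes) and ran from 0 to 10 on leaving out each library. The slope's 0 became 3 with protein on a log2 scale (7.88% of all genes), and stayed 0 when diet code was a covariate. At 60% fat the single call became 5 with no count filter (8.34% of all genes), 2 with DESeq2 (11.6%) and 2 with the replicate block (0 to 9 on leaving out each library), and at 20% fat the 2 calls ran from 0 to 4. The cause of these shifts was not tested. The replicate block changed no other count of members. It moved the share of all genes past the threshold at 60% fat from 4.25% to 11.2%. Replicate numbers are not shown to pair the samples. For 2.5% and 5% against 20% protein, for fat and for the difference between fat levels no member passed in any alternative run. Of the 32 members not past the threshold in the comparison of 1% with 20% protein, 18 changed sign in at least 1 of 27 alternatives. No scaling moved the median of all genes by over 0.1. Depth limits Wdr24, Rps6kb2, Eif4ebp1 and Itfg2 most.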
